A study of Mus musculus with 10 samples.

Results

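Expression of 10 melanin synthesis and melanosome genes was measured by RNA-seq in the cultured mouse melanoma line WT31 and in its hepatic-passaged subline WT31_P5IV. The genes are Tyr, Tyrp1, Dct, Pmel, Mlana, Slc45a2, Oca2, Slc24a5, Gpr143 and Mc1r, chosen by name from the 55385 gene identifiers of the deposited values. All 10 passed the filter on low counts and belong to the 13620 genes tested. WT31 came from Tyr::NrasQ61K/°; INK4a-/- mice, in which the tyrosinase promoter drives the mutant NRAS transgene, and both groups share this genotype. WT31_P5IV was obtained by 5 cycles in which WT31 cells were injected into the tail vein of female C57Bl/6 mice and melanoma cells were recovered from the liver and expanded. It is a single lineage of serial passages. Each group held 5 libraries from untreated, sub-confluent cells in RPMI medium with serum, labelled as biological replicates. Nothing in the labels says that the replicates were separate cultures, so the p-values measure the spread between these libraries. The comparison asks whether the passaged subline differs from its parental line in the genes of the pigment program.

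Melanin is made in melanosomes, lysosome-related organelles of pigment cells. Tyrosinase (Tyr) catalyses the first and rate-limiting step from tyrosine, and its paralogs dopachrome tautomerase (Dct) and tyrosinase-related protein 1 (Tyrp1) act further along the eumelanin pathway. Pmel forms the amyloid fibrils on which melanin is deposited, and Mlana, the Melan-A antigen, is a small melanosomal membrane protein. Slc45a2, Oca2 and Slc24a5 are transporters or channels that set the pH and ion content of the organelle. Gpr143 is a receptor on the melanosome membrane, and Mc1r is the melanocortin receptor at the cell surface. The transcription factor MITF, with SOX10 and PAX3 above it, is the known activator of many of these genes, and the M-box, an extended E-box, is its known element.

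Promoter windows of 250 bases before and 50 bases after the start site were available from RefSeq (GRCm38.p6) for 6 of the 10 genes, namely Tyr, Tyrp1, Dct, Oca2, Slc24a5 and Mc1r. Pmel, Mlana, Slc45a2 and Gpr143 had no entry in the set of windows used here, although their gene positions are annotated. The windows of Tyr (chr7:87493463-87493762, minus strand), Tyrp1 (chr4:80833963-80834262, plus strand) and Dct (chr14:118052197-118052496, minus strand) are shown because these paralogous enzymes carry the same element and differed in the direction or size of their change. Each is written 5′ to 3′ on the strand of the gene, and capitals mark the M-box core TCATGTG or its reverse complement CACATGA.
Tyr: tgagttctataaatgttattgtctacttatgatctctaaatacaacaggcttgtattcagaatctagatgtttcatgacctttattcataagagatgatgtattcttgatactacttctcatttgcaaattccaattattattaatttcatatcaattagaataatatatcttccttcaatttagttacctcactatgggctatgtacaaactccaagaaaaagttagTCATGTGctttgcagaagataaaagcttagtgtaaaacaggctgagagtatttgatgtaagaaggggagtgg
Tyrp1: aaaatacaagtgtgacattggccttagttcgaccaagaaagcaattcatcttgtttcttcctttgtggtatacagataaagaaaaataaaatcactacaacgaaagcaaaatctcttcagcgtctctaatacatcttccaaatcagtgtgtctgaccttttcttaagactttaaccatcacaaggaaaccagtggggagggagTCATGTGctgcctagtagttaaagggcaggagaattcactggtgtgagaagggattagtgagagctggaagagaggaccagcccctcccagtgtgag
Dct: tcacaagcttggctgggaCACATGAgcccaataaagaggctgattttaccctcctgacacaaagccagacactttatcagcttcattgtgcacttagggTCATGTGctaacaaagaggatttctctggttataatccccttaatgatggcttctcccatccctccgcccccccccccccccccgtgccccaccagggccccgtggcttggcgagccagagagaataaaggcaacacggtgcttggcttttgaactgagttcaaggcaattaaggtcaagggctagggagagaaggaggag
The core was searched on both strands, and distances are from the RefSeq start site of each window. That site can differ from the gene positions given below, which come from GENCODE M21. For Tyrp1 the GENCODE position begins at 80834123, upstream of the RefSeq start site and of the core. The core begins 22 bases before the start site in Tyr, 47 bases before it in Tyrp1 and 52 bases before it in Mc1r. Dct holds 2 copies, 151 bases before the start site and, on the opposite strand, 232 bases before it. Slc24a5 holds it on the opposite strand, 13 bases before the start site, and the window of Oca2 did not hold these letters. The core was thus present in 5 of the 6 windows, against 1239 of all 32851 windows of the same length (3.77%). The palindromic E-box CACGTG, whose letters the core does not contain, was present in 0 of the 6 windows and in 2349 of all windows (7.15%). A match of letters describes the window and is not evidence of binding.

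The libraries held 24255389 to 25750639 estimated counts. The level of a gene across libraries is given in CPM, the estimated counts scaled to a common library size after scaling of the libraries by trimmed means (TMM). Levels of different genes are compared in TPM, which is per length. WT31 replicates 2 and 3 stood apart from the other WT31 libraries on the first principal component within WT31, which held 40.9% of the variance in that group. Their positions were -0.541 and -0.481, against 0.0845 to 0.590 for replicates 1, 4 and 5. The CPM of these 2 libraries did not overlap those of the other 3 in 7 of the 10 members, and likewise in 54.1% of all tested genes. Fold changes of the members and of the named regulators are therefore given with and without both libraries, an alternative chosen after the data were seen.

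Of 27 markers of other cell types that a liver passage could carry along, 13 did not exceed 3 counts in any library. The summed TPM of 6 hepatocyte markers was 0.567 to 1.18 in WT31 and 0.652 to 1.63 in WT31_P5IV, with Serpina1a and Fgb at 0 in all libraries. Alb was at 0 counts in WT31 and at 9 in WT31_P5IV replicate 1 alone. Apoa1 was at 0 counts in WT31 and at 4, 2, 0, 0 and 3 in WT31_P5IV, and both genes were too low to be tested. Ttr, at 6 to 14 and 8 to 15 counts, was not called, and Ahsg had 0 to 6 counts across all libraries. Of 5 macrophage and leukocyte markers, 3 did not exceed 3 counts in any library, and the sum was 1.67 to 4.47 TPM in WT31 and 6.28 to 9.86 TPM in WT31_P5IV. That sum was carried by Cd68, a lysosomal glycoprotein, at 20 to 50 counts in WT31 and 80 to 117 in WT31_P5IV. Cd68 was called higher, at a log2 fold change of 1.45 (adjusted p = 1.16e-05 by edgeR). The pan-leukocyte marker Ptprc stayed at 0 to 2 counts. The sum over 5 endothelial markers was 0.0694 to 0.353 TPM in WT31 and 0.0645 to 0.229 TPM in WT31_P5IV, with Cdh5 at 0. The sum over 6 stellate cell and fibroblast markers was 0.863 to 1.22 TPM and 1.27 to 1.58 TPM, in that order. In that list Acta2, at 2 to 12 counts in WT31 and 15 to 21 in WT31_P5IV, and Col1a1, at 18 to 28 and 33 to 48 counts, were called higher, with log2 fold changes of 1.46 and 1.00 (adjusted p = 9.69e-04 and 1.56e-04 by edgeR). The part of these markers in the changes of the pigment genes was not tested. Over 5 epithelial markers it was at most 0.0669 TPM and 0.150 TPM, with Krt18 at 0. Against these, the lowest of the 10 pigment genes, Gpr143, stood at 26.3 TPM or more and the highest, Dct, at 4741 TPM or more in every library.

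The pigment genes did not move in 1 direction. In WT31_P5IV, Pmel, Dct, Slc45a2 and Tyr rose, whereas Tyrp1, Oca2, Slc24a5, Mc1r and Gpr143 fell, and Mlana did not pass the test. Thus 9 of the 10 members were called by edgeR's quasi-likelihood test at an adjusted p under 0.05, 4 higher and 5 lower. In the same test 68.5% of all tested genes were called, 34.6% higher and 33.9% lower, so a call alone does not set the members apart from other genes. The median log2 fold change of the members was -0.07, beside 0.01 over all tested genes. Only Pmel passed an absolute log2 fold change of 1, which 9.10% of tested genes passed, and Tyrp1 lay just short of it and passed it in 4 of the alternatives. In bulk RNA, fewer cells that express a gene and less RNA per cell cannot be told apart. In 8 members the CPM of the groups did not overlap, 4 higher and 4 lower, against 54.1% of all tested genes.

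**Figure D1:**
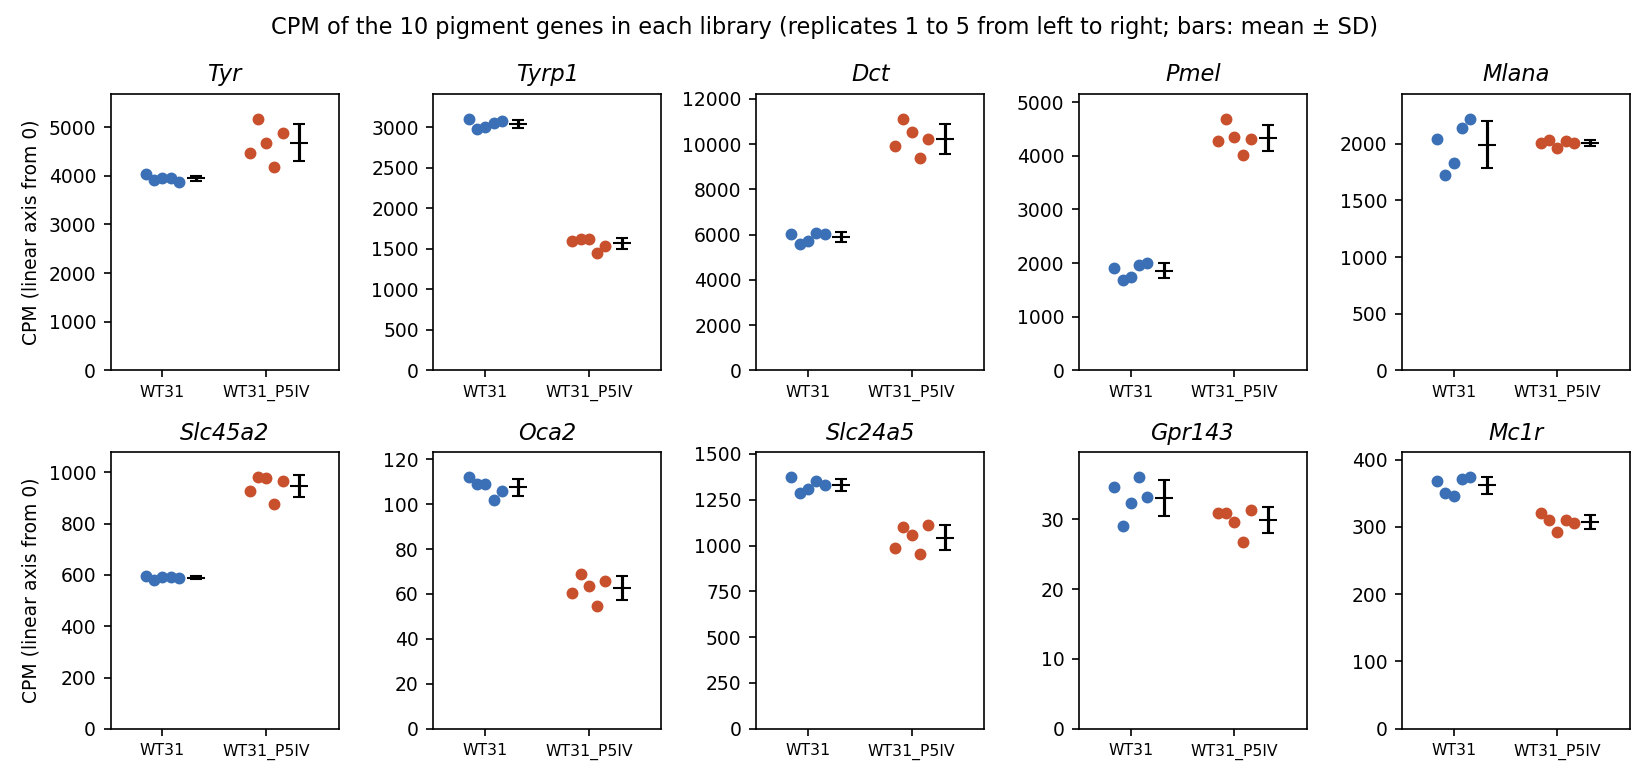
CPM of each of the 10 pigment genes (linear axis from 0) in the 5 WT31 libraries (blue) and the 5 WT31_P5IV libraries (red), replicates 1 to 5 from left to right, with the mean and SD as black bars. Dct, Pmel, Slc45a2 and Tyr lie higher in WT31_P5IV and Tyrp1, Oca2, Slc24a5 and Mc1r lower without overlap, while the groups overlap for Mlana and Gpr143.

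Among the enzymes, Tyrp1 and Dct moved in opposite directions. Tyrp1, on plus-strand chr4:80834123-80851719, stood at 3103, 2980, 3004, 3045 and 3072 CPM in WT31 replicates 1 to 5. In WT31_P5IV it stood at 1591, 1619, 1621, 1450 and 1538 CPM. Every WT31_P5IV library lay far below every WT31 library, and the mean fell 1.94-fold, from 3041 ± 49.7 to 1564 ± 71.9 CPM (SD, n = 5 each). The log2 fold change was -0.96 (SE 0.04, adjusted p = 3.50e-11 by edgeR) and -0.99 without WT31 replicates 2 and 3.

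Dct, on minus-strand chr14:118012790-118052244, had 6038, 5586, 5730, 6085 and 6024 CPM in the WT31 libraries. The WT31_P5IV libraries had 9902, 11122, 10540, 9371 and 10230 CPM. Here the passaged subline was higher throughout, with the lowest of its libraries well above the highest of WT31. The mean rose 1.74-fold, from 5893 ± 221 to 10233 ± 659 CPM (SD, n = 5), at a log2 fold change of 0.80 (SE 0.05, adjusted p = 2.72e-09 by edgeR). Without WT31 replicates 2 and 3 it was 0.74.

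Tyr, on minus-strand chr7:87424771-87493512, changed least of the enzymes. Its WT31 libraries lay at 4029, 3905, 3956, 3954 and 3875 CPM and the WT31_P5IV libraries at 4459, 5173, 4669, 4189 and 4886 CPM. The groups did not overlap, although WT31_P5IV replicate 4 came close to WT31, and the subline was more variable (SD 379 against 58.7 CPM). Tyr was 1.19-fold higher, with a log2 fold change of 0.25 (SE 0.05, adjusted p = 5.64e-04 by edgeR) and 0.23 without WT31 replicates 2 and 3. In TPM the groups overlapped, at 1544 ± 55.9 in WT31 and 1702 ± 141 in WT31_P5IV (SD, n = 5). Limma on log2(TPM + 0.1) gave a log2 fold change of 0.14 and an adjusted p of 0.0731. The log2 fold changes of all tested genes shifted on this scale, with a median per-gene difference of -0.17 from those on counts, and relative to that shift Tyr was at 0.30.

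The structural proteins of the melanosome also differed from each other. Pmel, on plus-strand chr10:128704195-128720238, had 1901, 1689, 1747, 1968 and 1994 CPM in the WT31 libraries. In WT31_P5IV it had 4270, 4693, 4349, 4017 and 4318 CPM. No library of the subline came near the parental range, and Pmel showed the largest change of the members, from 1860 ± 135 to 4330 ± 242 CPM (SD, n = 5) or 2.33-fold. Its log2 fold change was 1.22 (SE 0.05, adjusted p = 1.07e-10 by edgeR) and 1.13 without WT31 replicates 2 and 3. Short stretches of Pmel exons lie opposite Cdk2 (34 of 2292 exon bases) and Dgka (105 bases), and 3.54% of its 31-base words occur in these genes.

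Mlana, on plus-strand chr19:29697824-29708634, showed 2045, 1721, 1832, 2135 and 2221 CPM in WT31. In WT31_P5IV it showed 2006, 2029, 1962, 2028 and 2003 CPM. The subline libraries sat inside the parental range and were much tighter, with an SD of 27.1 CPM against 209 CPM in WT31. The means were 1991 and 2005 CPM (n = 5 each), and the log2 fold change was 0.01 (SE 0.06, adjusted p = 0.888 by edgeR). The wide WT31 range came from replicates 2 and 3, the lowest at 1721 and 1832 CPM. Without both, Mlana was lower in WT31_P5IV, at a log2 fold change of -0.10 (SE 0.04, adjusted p = 0.0184 by edgeR). Limma on log2(TPM + 0.1) gave -0.16 (adjusted p = 0.0214), or 0.00 relative to the median per-gene shift on that scale.

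Of the transporters, 1 rose and 2 fell. Slc45a2, on plus-strand chr15:11000721-11029233, a transporter-like protein that raises melanosomal pH and is mutated in the underwhite mouse, lay at 595, 580, 592, 592 and 587 CPM in WT31. In WT31_P5IV it lay at 928, 982, 979, 877 and 966 CPM. All subline libraries were above the narrow parental range. The mean rose 1.61-fold, from 589 ± 5.81 to 946 ± 44.1 CPM (SD, n = 5), at a log2 fold change of 0.68 (SE 0.04, adjusted p = 7.73e-10 by edgeR) and 0.66 without WT31 replicates 2 and 3.

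Oca2, on plus-strand chr7:56239760-56536518, the pink-eyed dilution protein that carries a chloride conductance of the melanosome, moved the other way. It had 112, 109, 109, 102 and 106 CPM in WT31 and 60.6, 69.0, 63.5, 54.8 and 65.8 CPM in WT31_P5IV. The groups were well separated, and Oca2 was 1.71-fold lower in the subline. The log2 fold change was -0.78 (SE 0.05, adjusted p = 1.09e-08 by edgeR) with all libraries and also -0.78 without WT31 replicates 2 and 3.

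Slc24a5, on plus-strand chr2:125068124-125088677, a potassium-dependent sodium-calcium exchanger, had 1373, 1286, 1307, 1355 and 1329 CPM in WT31. In WT31_P5IV it had 987, 1101, 1060, 954 and 1112 CPM. It was lower in every subline library, by 1.28-fold on average, at a log2 fold change of -0.35 (SE 0.05, adjusted p = 7.45e-06 by edgeR) and -0.39 without WT31 replicates 2 and 3. Of its 2330 exon bases, 921 (39.5%) lie opposite Myef2, and whether the counting used strand is not stated in the sources used here. Myef2 itself went from 245 ± 17.0 to 213 ± 5.61 CPM (SD, n = 5). Its log2 fold change was -0.20 (SE 0.05, adjusted p = 0.00118 by edgeR). The part of Myef2 in the value of Slc24a5 was not tested.

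The receptors changed least among the called genes that fell. Mc1r, on plus-strand chr8:123407107-123410744, was at 368, 350, 345, 371 and 374 CPM in WT31. In WT31_P5IV it was at 321, 310, 293, 310 and 305 CPM. The groups did not overlap, and the log2 fold change was -0.23 (SE 0.04, adjusted p = 5.10e-05 by edgeR) or -0.28 without WT31 replicates 2 and 3. The predicted gene Gm38092 lies opposite 653 of the 3638 exon bases of Mc1r (17.9%) and had 0 to 5.70 CPM.

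Gpr143, on plus-strand chrX:152781921-152808646, was the lowest of the 10 genes. It had 34.6, 29.1, 32.3, 36.0 and 33.3 CPM in WT31 and 30.9, 30.9, 29.6, 26.7 and 31.3 CPM in WT31_P5IV. The ranges overlapped through WT31 replicate 2, and the log2 fold change of -0.15 (SE 0.06) just passed, at an adjusted p of 0.0438 by edgeR. The call was lost in 7 of 20 alternatives, among them the fits without WT31 replicate 1 (adjusted p = 0.0697), WT31 replicate 4 (0.0788), WT31_P5IV replicate 3 (0.0664) and WT31_P5IV replicate 4 (0.104). Without WT31 replicates 2 and 3 together the log2 fold change was -0.23 (adjusted p = 0.00108 by edgeR). In TPM the groups did not overlap, at 34.91 to 39.95 in WT31 and 26.34 to 31.97 in WT31_P5IV. Limma on log2(TPM + 0.1) gave -0.35 (adjusted p = 4.63e-04), or -0.18 relative to the median per-gene shift on that scale.

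Within a group, the members also tended to share their extreme libraries. WT31 replicate 2 was the lowest WT31 library in 7 of the 10 members, while it was the lowest in 28.3% of all tested genes. WT31_P5IV replicate 4 was the lowest subline library in 8 members, all except Mlana and Mc1r, and in 23.7% of tested genes. WT31_P5IV replicate 2 was the highest in 6 members and in 22.3% of tested genes. The spread within WT31_P5IV did not reach the parental range in the strongest genes, and Dct, for example, spanned 9371 to 11122 CPM there, above the 6085 CPM of the highest WT31 library.

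Per length, Dct and Mlana were the most abundant pigment transcripts of both groups. In WT31, Dct reached 4826 ± 83.2 TPM and Mlana 4224 ± 311 TPM, followed by Tyrp1 at 2197 ± 63.0, Tyr at 1544 ± 55.9 and Pmel at 1437 ± 63.9 TPM (SD, n = 5). Slc24a5 came next at 1138 ± 28.7 TPM, then Slc45a2 at 316 ± 8.54, Mc1r at 157 ± 2.30, Oca2 at 60.9 ± 4.86 and Gpr143 at 37.6 ± 1.88 TPM. Of the neighbours in this order, Tyr and Pmel alone had ranges that overlapped. In WT31_P5IV, Dct stood at 7298 ± 452 TPM, Mlana at 3762 ± 63.0 and Pmel at 2965 ± 152 TPM, so Pmel had passed both Tyr (1702 ± 141 TPM) and Tyrp1 (1003 ± 50.5 TPM), and Tyr stood above Tyrp1. The lower 5 genes kept their order, with Slc24a5 at 790 ± 59.7, Slc45a2 at 449 ± 23.7, Mc1r at 118 ± 3.83, Oca2 at 32.3 ± 3.25 and Gpr143 at 29.5 ± 2.11 TPM. Here the ranges of Oca2 and Gpr143 overlapped. Among all genes, Dct ranked 17th to 18th by TPM in the WT31 libraries and 12th to 17th in WT31_P5IV, and Pmel went from rank 90 to 94 to rank 22 to 29.

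**Figure D2:**
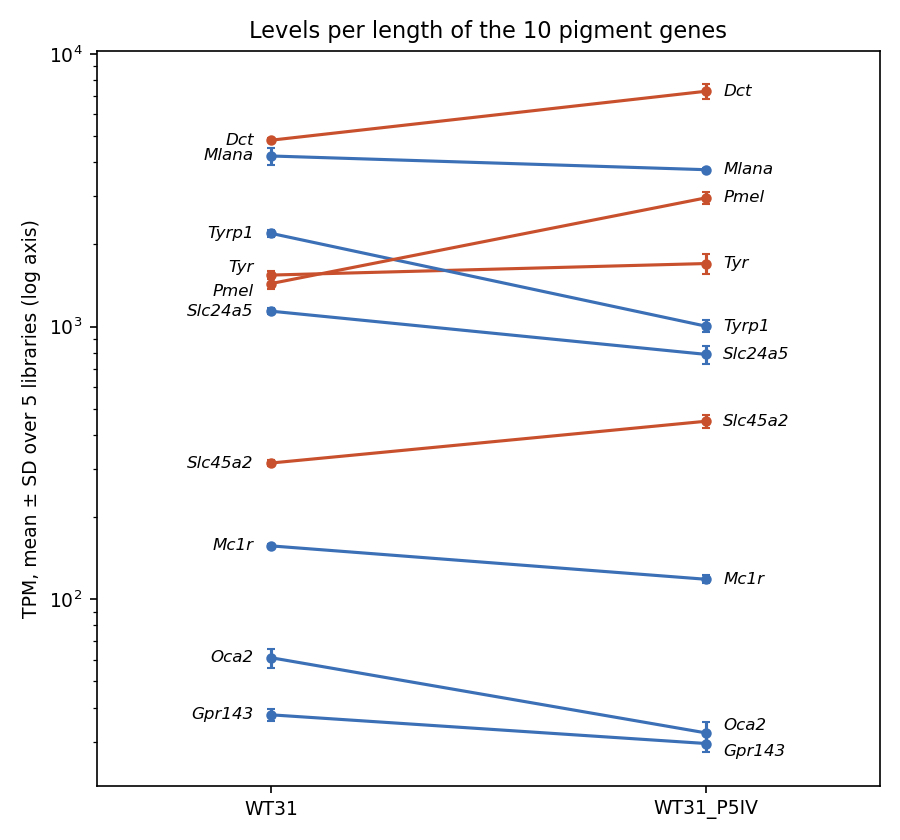
Mean TPM with SD over 5 libraries (log axis) of the 10 pigment genes in WT31 (left) and WT31_P5IV (right), red where the mean is higher in WT31_P5IV and blue where it is lower. Pmel crosses Tyr and Tyrp1, Tyrp1 drops from 2197 to 1003 TPM, and Dct stays the highest.

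The 10 genes together made up 1.54% to 1.63% of all TPM in the WT31 libraries and 1.68% to 1.88% in the WT31_P5IV libraries. The means were 1.59% ± 0.03 and 1.82% ± 0.09 (SD, n = 5), so the summed level moved far less than its make-up. Dct supplied 30.3% ± 0.38 of the pigment gene TPM in WT31 and 40.2% ± 0.67 in WT31_P5IV. Pmel went from 9.02% ± 0.24 to 16.3% ± 0.19. Tyrp1 fell from 13.8% ± 0.61 to 5.53% ± 0.16, and Mlana went from 24.6% to 28.3% across the WT31 libraries to 19.7% to 22.4% across the WT31_P5IV libraries. Tyr kept a like share, 9.69% ± 0.46 and 9.37% ± 0.35.

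Ratios of TPM within a library do not depend on how the libraries are scaled. The 5 ratios described here were chosen after the values were seen and are given with no test. Dct over Tyrp1 was 2.11 to 2.30 in the WT31 libraries and 6.96 to 7.57 in the WT31_P5IV libraries. Tyr over Tyrp1 was 0.687 to 0.713 in WT31, where Tyrp1 led, and 1.61 to 1.80 in WT31_P5IV, where Tyr led. Dct over Tyr moved less, from 3.00 to 3.26 in WT31 to 4.12 to 4.42 in WT31_P5IV. Pmel over Mlana was 0.328 to 0.358 and 0.726 to 0.842, and Slc45a2 over Oca2 was 4.93 to 5.69 and 12.9 to 15.0.

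**Figure D3:**
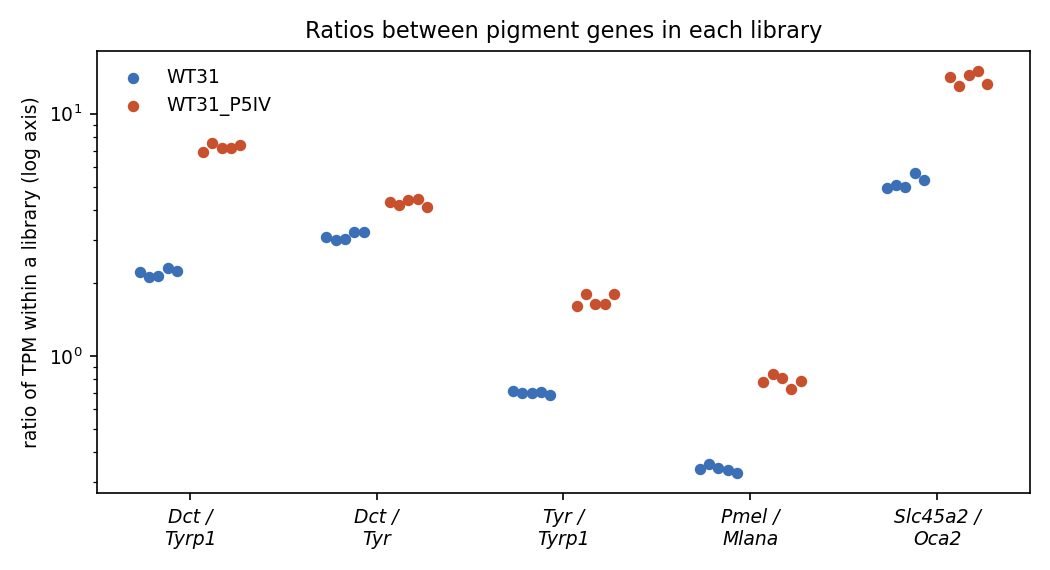
Ratio of the TPM of 2 pigment genes within each library (log axis), for the 5 WT31 (blue) and 5 WT31_P5IV (red) libraries. For Dct over Tyrp1 the WT31 libraries lie at 2.11 to 2.30 and the WT31_P5IV libraries at 6.96 to 7.57, and the spread within a group is small for all 5 ratios.

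A further readout was the estimated count per TPM of a gene, which follows the mean effective length of the transcripts counted. It is given relative to the median in the same library over the 13484 tested genes with TPM above 0 in every library. From WT31 to WT31_P5IV it fell by 3.58% for Tyr, from 1.71 ± 0.010 to 1.65 ± 0.014 (SD, n = 5). It rose by 3.04% for Dct, from 0.816 ± 0.0017 to 0.841 ± 0.0040, and by 3.56% for Gpr143, from 0.587 ± 0.0084 to 0.608 ± 0.012. The other 7 members moved by -1.33% to 1.68%. In 10 exact two-sided permutation tests, unadjusted, p was 0.00794 for 8 members, the smallest that 5 against 5 libraries allow, 0.0317 for Tyrp1 and 0.341 for Oca2. The same 8 members had groups without overlap, beside 31.1% of these 13484 genes. Over the same 13484 genes the median change was 1.14%, with the 5th and 95th percentiles at -9.81% and 8.37%, so the sizes of the members' changes lay inside the common range.

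The genes that act with the 10 members were taken from 4 lists of 53 genes, of which 50 were tested. The lists were not picked by movement, but earlier results of these data were known when they were set. Of the 50 genes, 15 rose and 22 fell at an adjusted p under 0.05, and 13 did not pass, again beside 34.6% and 33.9% of all tested genes. The median log2 fold change was -0.07. Without WT31 replicates 2 and 3, 48 of the 50 genes had the same call, Hps4 was called lower and Usf1 was no longer called.

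Of 22 genes of melanosome biogenesis and cargo sorting, 3 rose, 9 fell and 10 were not called, with a median log2 fold change of -0.09. The decreases included 3 subunits of the AP-3 adaptor, which sorts cargo to melanosomes, and the related small GTPases Rab38 and Rab32, which direct tyrosinase and Tyrp1 to the organelle. Rab38 had 176, 163, 161, 174 and 172 CPM in the WT31 libraries and 63.2, 58.7, 62.0, 60.8 and 64.5 CPM in those of WT31_P5IV. Its groups were far apart, with a log2 fold change of -1.45 (SE 0.04, adjusted p = 6.22e-13 by edgeR). Rab32 fell from 42.4 ± 2.67 to 20.2 ± 1.12 CPM (SD, n = 5), at a log2 fold change of -1.06 (SE 0.05, adjusted p = 3.91e-10 by edgeR). For AP-3, the log2 fold changes were -0.61 for Ap3m1, -0.58 for Ap3s1 and -0.34 for Ap3b1, while Ap3d1 at 0.02 was not called. Of the 5 HPS genes in the list, Hps3 alone was called, at 0.17. The other increases in the list were 0.57 for Rabggta and 0.29 for Lyst.

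Of 5 genes of melanosome transport, 4 fell and 1 rose, with a median log2 fold change of -0.37. The tripartite complex that ties the organelle to actin was lower in each part, with log2 fold changes of -0.37 for the GTPase Rab27a, -0.17 for its effector Mlph and -0.42 for the motor Myo5a. Mreg, a further transport gene, was at -0.47. Sytl2, another Rab27a effector, was higher at 0.27.

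Of 11 tested genes of other melanosomal proteins, 7 rose, 3 fell and 1 was not called, with a median log2 fold change of 0.19. Tspan10, a tetraspanin, rose from 48.7 ± 4.37 to 127 ± 11.3 CPM (SD, n = 5), a log2 fold change of 1.39 (SE 0.07, adjusted p = 2.73e-10 by edgeR). Gpnmb, a glycoprotein related to Pmel, rose by 0.71 on the log2 scale. Trpm1, the cation channel melastatin, fell from 1650 ± 52.8 to 771 ± 43.3 CPM, a log2 fold change of -1.10 (SE 0.04, adjusted p = 2.52e-11 by edgeR). Slc7a11, the cystine importer whose loss gives the subtle gray coat, fell from 395 ± 56.4 to 134 ± 11.6 CPM, at a log2 fold change of -1.56 (SE 0.09, adjusted p = 1.18e-09 by edgeR).

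Of 12 tested regulators, 4 rose, 6 fell and 2 were not called, with a median log2 fold change of -0.07. Mitf had 336, 390, 370, 319 and 313 CPM in the WT31 libraries and 335, 334, 349, 334 and 360 CPM in those of WT31_P5IV. The log2 fold change was -0.01 (SE 0.06, adjusted p = 0.84 by edgeR). The WT31 range exceeded that of the subline through replicates 2 and 3, and replicates 1, 4 and 5 lay at 313 to 336 CPM. Without both, the log2 fold change was 0.07 (SE 0.04, adjusted p = 0.124 by edgeR), and Mitf was called in neither fit. Sox10 was at -0.14 (SE 0.05, adjusted p = 0.0373) and Pax3 at 0.09 (SE 0.03, adjusted p = 0.0239) by the same test, and for both the groups overlapped in CPM. Without WT31 replicates 2 and 3, Sox10 was at -0.22 and Pax3 at 0.10. In mean TPM, Sox10 went from 509 in WT31 to 410 in WT31_P5IV without overlap of the groups. Pax3 went from 94.7 to 90 TPM with overlap, opposite to its direction in CPM. These TPM values include the general shift on that scale.

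Kit, the receptor tyrosine kinase of melanocytes, rose from 472 ± 16.2 to 636 ± 45.7 CPM (SD, n = 5), a log2 fold change of 0.43 (SE 0.05, adjusted p = 1.61e-06 by edgeR) and 0.45 without WT31 replicates 2 and 3. Irf4, a transcription factor that acts with MITF on the Tyr gene, had 21, 37, 37, 32 and 25 estimated counts in WT31. In WT31_P5IV it had 7, 7, 4, 2 and 4 counts. It was low in all libraries and lower in the subline, with a log2 fold change of -2.54 (SE 0.29, adjusted p = 2.05e-06 by edgeR) and -2.34 without WT31 replicates 2 and 3.

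**Figure D4:**
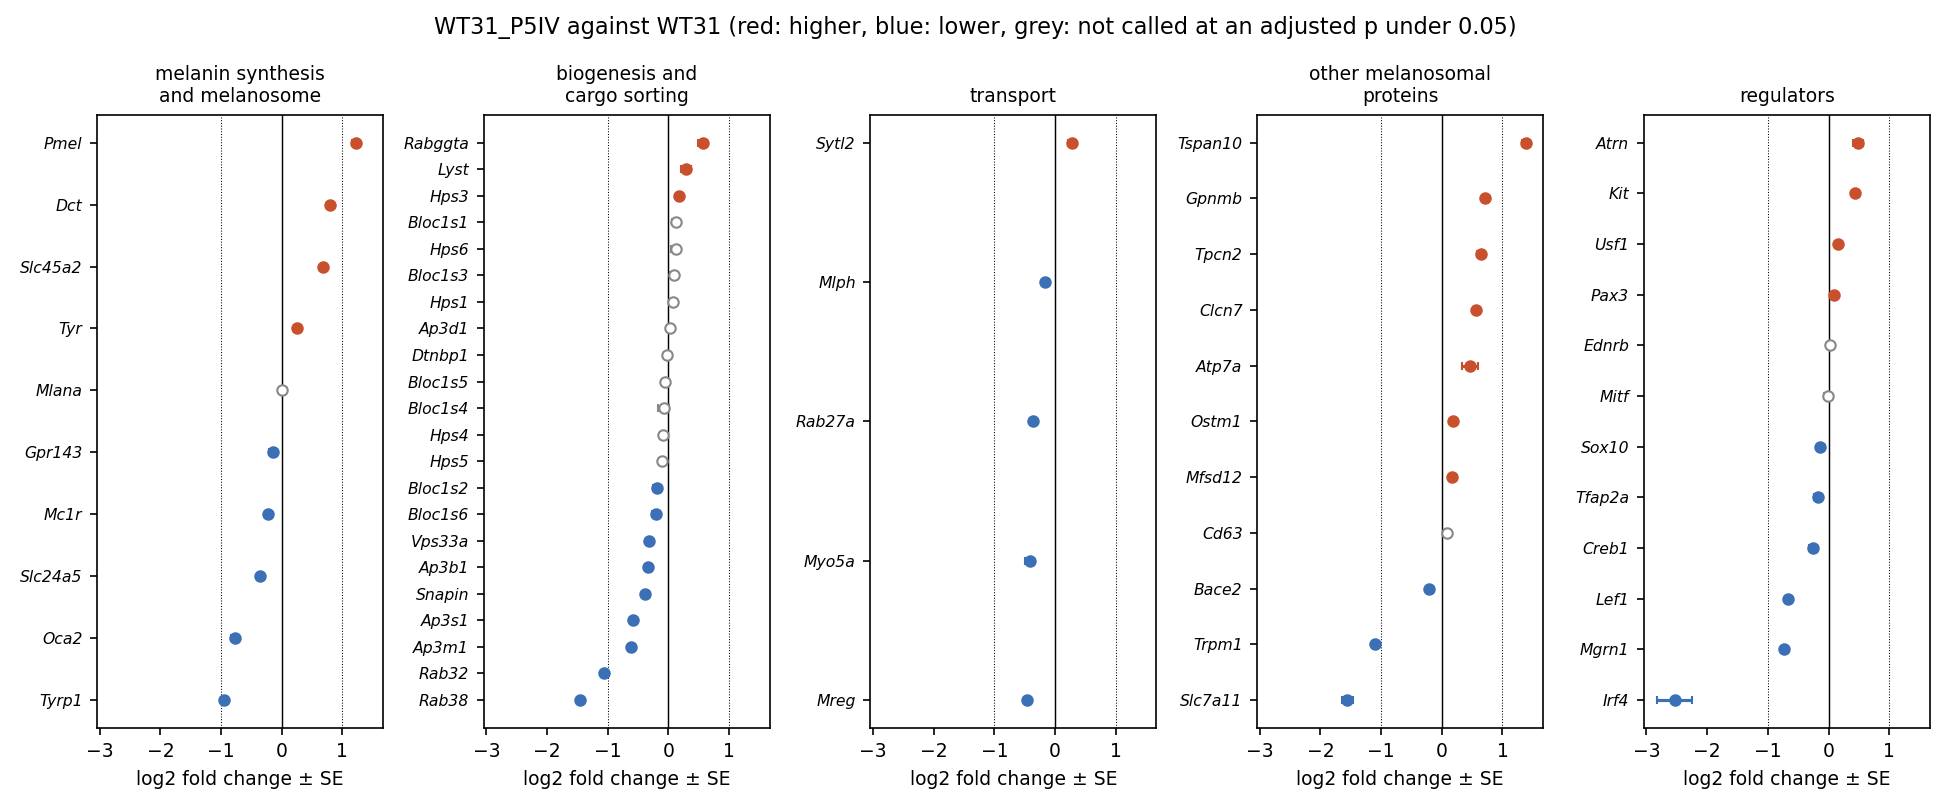
Log2 fold change of WT31_P5IV against WT31 with its SE for the 10 pigment genes and the tested genes of the 4 lists, red where higher, blue where lower and open grey where not called. The pigment genes run from -0.96 for Tyrp1 to 1.22 for Pmel, and the genes past an absolute log2 fold change of 1 in the 4 lists are Tspan10 upward and Rab38, Rab32, Trpm1, Slc7a11 and Irf4 downward.

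The tested genes most like Dct over the 10 libraries, by the root mean square difference of centred log2 CPM, were Man2b1 (0.022), Cyp4f16 (0.024) and Tm7sf3 (0.027). Man2b1, the lysosomal alpha-mannosidase, went from 279 ± 9.48 to 477 ± 23.9 CPM (SD, n = 5). Cyp4f16, a cytochrome P450, went from 15.0 ± 0.49 to 25.9 ± 2.13 CPM, and Tm7sf3, a multi-pass membrane protein, from 91.4 ± 2.40 to 162 ± 7.52 CPM. For Pmel they were Naglu (0.034), Atp13a2 (0.039) and Sgce (0.046). Naglu, a lysosomal glucosaminidase, went from 51.9 ± 3.43 to 123 ± 5.81 CPM, and Atp13a2, a lysosomal transport ATPase, from 55.1 ± 3.05 to 126 ± 4.25 CPM. Sgce, the epsilon-sarcoglycan, went from 58.0 ± 3.23 to 142 ± 10.2 CPM. These genes were picked for their likeness among 13620, so the values are a description, and no shared function was tested.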

How the data were processed

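RNA was sequenced from 5 WT31 and 5 WT31_P5IV libraries. The authors used Trim Galore 0.6.4 for trimming and pseudoaligned the reads with kallisto to transcripts of GRCm38.p6. The authors deposited estimated counts and TPM values, both summed per gene by them. The submitters' processing notes give kallisto's version as 0.4.6, and the study's methods name a different one. The annotation release and the strand setting are not given in the sources used here, and the labels name instruments of 2 makers. Symbols and positions came from GENCODE M21, which held 55144 of 55385 identifiers. Replicate numbers follow the sample titles.

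Estimated counts were rounded, filtered with filterByExpr, scaled by TMM and compared with the quasi-likelihood test of edgeR 4.0.16 (R 4.3.3), with Benjamini-Hochberg adjustment over 13620 genes. A gene was called at an adjusted p under 0.05. SE values came from the fold change and the F statistic. Alternatives were DESeq2 1.42.0, limma 3.58.1 (voom, and on log2 TPM with a pseudocount of 0.1 or 1), other scalings and filters, a replicate block, and each library left out. On simulated data with 200 of 13620 genes changed, edgeR found 92% of those changed by a log2 of 1 and 78% of those changed by 0.5, with 12 false calls. Detection limits of 3 counts cover counting error only. Tables were processed with Python 3.11.15, numpy 2.4.6 and pandas 2.3.3.

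The members and lists were chosen with earlier results of these data known. All members are named. Of the lists, Mitf, Sox10, Pax3, Kit and every called gene past an absolute log2 fold change of 1 are named, with the 3 genes most like the most abundant and the most changed member. Other list genes were named after their values were seen.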

Additional observations from a re-analysis of the deposited data

How the results depend on the processing

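Tyrp1, Dct, Pmel, Slc45a2, Oca2, Slc24a5 and Mc1r kept their direction and their call in all 20 alternatives. The number of members past an absolute log2 fold change of 1 was 2 in place of 1 in limma voom without scaling or filter, with a filter of at least 1 count, and on log2(TPM + 0.1) and log2(TPM + 1), Tyrp1 being added to Pmel each time. Leaving out single libraries kept the number of members past that threshold at 1. On log2(TPM + 0.1) and log2(TPM + 1), Tyr was at 0.1373 and 0.1372 (adjusted p = 0.0731 and 0.0638 by limma), and Mlana was lower and called at -0.1641 and -0.1640 (adjusted p = 0.0214 and 0.0177). Over all tested genes, the median per-gene difference of the log2 fold change from that on counts was -0.17 and -0.16, and the calls went from 4709 higher and 4618 lower to 2891 and 5897 on log2(TPM + 0.1). Mlana was also lower without both WT31 replicates 2 and 3 (-0.1048, adjusted p = 0.0184 by edgeR), which made 10 members called. Gpr143 lost its call in voom without scaling or filter (-0.2133, adjusted p = 0.0559), with upper-quartile scaling (-0.1175, 0.107) and with the replicate block (-0.1441, 0.0603), and ranged from -0.2001 to -0.1127 when single libraries were left out. The cause of these changes was not tested. Calls over all genes ranged from 8622 to 10163. Libraries with the same number in the titles showed at most a weak shared deviation (correlations of -0.096 to 0.178), and replicate 3 alone matched its own number best. The block on these numbers changed no other member's call. The file labels number the WT31 libraries 1, 2, 4, 5 and 6, and the 4 pairs they share with WT31_P5IV had correlations of -0.160 to 0.067. Low correlations cannot exclude a shared harvest or batch, so whether the libraries were paired was not settled. The depth of Irf4 and of the markers of other cell types limits their values.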
